A study of Drosophila melanogaster
Mus musculus with 21 samples.

Results

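Nuclear RNA of mouse embryonic stem cells was compared after 24 h of auxin and without auxin, with 3 libraries in each group out of 21 in the series. The 24 h comparison is the latest of 4 auxin times, and its table from the authors holds 20633 entries, each a RefSeq transcript or locus. Of these, 13499 had 50 or more reads in untreated cells, and the account below rests mainly on them. Untreated reads are the deposited mean level of the untreated cells, in normalised reads per kilobase, multiplied by the entry's length in kilobases. Just below that limit lay Pih1d2 (49.97 reads), Pdzrn4 (49.98) and Oprd1 (49.99), with log2 fold changes of 0.69, 1.86 and 1.38 in the authors' deposited table. Just above it lay Cnih2 (50.06), Cdsn (50.09) and Tnfsf9 (50.10 reads), with log2 fold changes of 0.02, -0.07 and -0.07 in the authors' deposited table.

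Both groups were of 1 engineered line with the genotype E14 Rosa26::Tir1; Ring1A-/-; AID-Ring1B. Untreated and treated cells alike therefore lacked RING1A, expressed the plant auxin receptor protein TIR1 from the Rosa26 locus and carried an auxin-inducible degron on RING1B. The treated cells had 500 µM auxin (IAA, indole-3-acetic acid) in the medium for 24 h, and the untreated cells had none. All were grown on gelatin in serum with leukaemia inhibitory factor. Drosophila SG4 cells were mixed with the mouse cells before nuclei were released, so that RNA could be scaled to a spike-in, and paired ends of 80 bp were read from rRNA-depleted, directional libraries made as biological triplicates. Auxin given to a line without the degron was not analysed here, so an effect of auxin itself cannot be told apart from loss of RING1B.

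Polycomb repressive complex 1 (PRC1) is built around RING1A or RING1B, the E3 ligases that place ubiquitin on histone H2A at lysine 119. It gathers at CpG islands, with PCGF, CBX, PHC and RYBP or YAF2 proteins as further subunits, and keeps developmental regulators silent in embryonic stem cells. Polycomb repressive complex 2 (PRC2), which methylates histone H3 at lysine 27, often occupies the same genes.

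The untreated means added up to 30450536 normalised reads, while how deeply each library was read is unknown. The tables hold the authors' DESeq2 log2 fold changes and adjusted p-values and neither standard errors nor values per library, so the spread between replicates enters only through the adjusted p. The labels number the 24 h libraries in a series of their own. A run of their own, if there was one, cannot be told apart from the auxin treatment in the 24 h comparison with untreated cells. This holds for the higher and the lower calls alike. The degron acts on protein, so no transcript can show whether the depletion worked. Rnf2, the gene of RING1B, had a log2 fold change of 0.34 (adjusted p = 0.389), and Ring1, which encodes RING1A, had 202 untreated reads and a log2 fold change of 0.43 (adjusted p = 0.294) in the authors' deposited table. Which part of Ring1 was deleted is not given in the sources used here, so its reads check nothing.

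The label of the cells matched their markers. The 6 embryonic stem cell markers, Pou5f1, Sox2, Nanog, Esrrb, Zfp42 and Klf4, lay between 129 and 3585 reads per kilobase in untreated cells and summed to 10026. None of them was called at 24 h. Marker sums of other cell types were 23.3 reads per kilobase for primitive endoderm, 11.5 for trophoblast, 10.5 for mesoderm, 16.3 for neural cells and 15.9 for blood, with Cdx2 and Hba-x listed at 0. The fibroblast sum of 128 came mostly from Thy1 (116 reads per kilobase). At 24 h, 5 of 6 primitive endoderm, 3 of 4 trophoblast, 2 of 4 mesoderm, 3 of 4 neural, 1 of 5 fibroblast and 0 of 4 blood markers were called higher and none lower. In bulk RNA, a change in the share of cells of a type and a change in RNA per cell cannot be told apart.

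After 24 h of auxin most genes that changed were higher, and a smaller set was lower. A call required an adjusted p under 0.05 from the authors' DESeq2 fit together with a change of over 1.5-fold. Over all 17639 entries with an adjusted p, 2020 were higher (11.5%) and 108 lower (0.612%). Of the 13499 entries with 50 or more untreated reads, 1226 were higher (9.08%) and 89 lower (0.659%), from 1127 and 85 gene symbols. Counting each of 16457 tested symbols once, by the entry with the most untreated reads, 1868 were higher (11.4%) and 99 lower (0.602%), and this is the background for the gene lists below, where members not called include any with no adjusted p. Over 2-fold, 682 of the entries with 50 or more reads were called higher and 58 lower, and over 4-fold 129 and 7.

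Most entries lay above 0. Entries with 50 or more untreated reads had a median log2 fold change of 0.24, which is 1.18-fold, with quartiles of 0.08 and 0.41, and 83.6% lay above 0. The medians at 2, 4 and 8 h were 0.15, 0.40 and 0.50. All 4 comparisons use the same untreated libraries, so their values are set side by side and no overlap between them is read. With the fold changes centred on the 24 h median, 915 entries were higher and 89 lower, so the share of calls that were higher moved from 93.2% to 91.1%. The lower calls stayed at 89 because every lower entry past the adjusted p was already over 1.5-fold lower, and the adjusted p itself tests the uncentred change. Whatever their p, 436 entries lay over 1.5-fold below the median. Changes below are as deposited, and the value of 0.24 is the level to read those at 24 h against. Values at 2, 4 and 8 h are to be read against 0.15, 0.40 and 0.50.

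**Figure D1:**
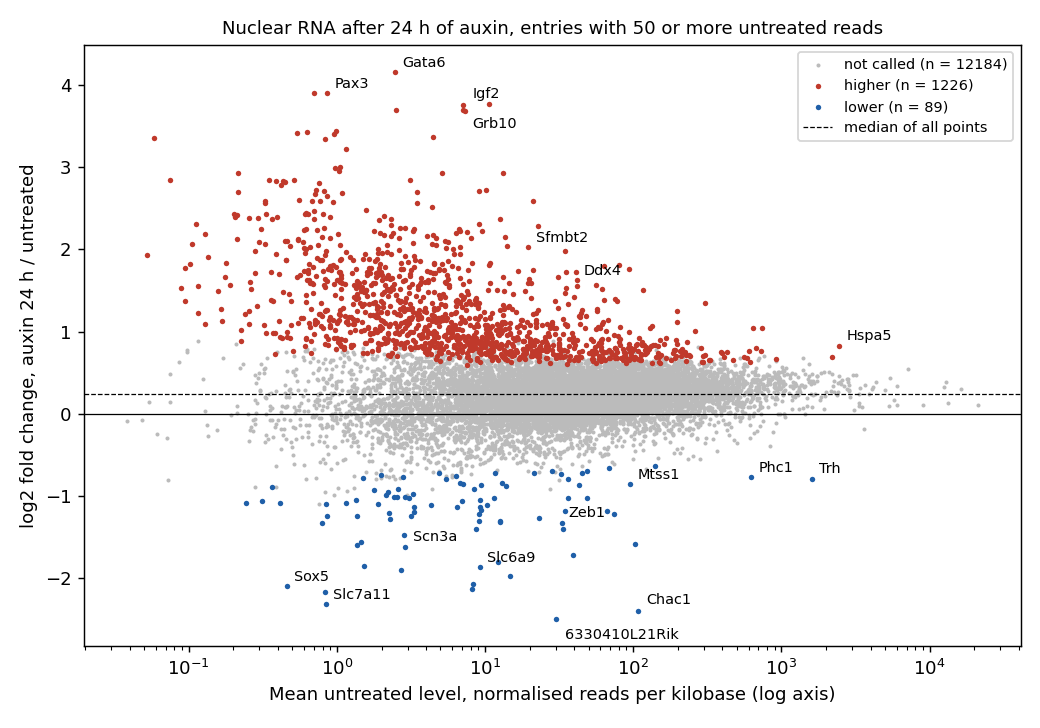
Log2 fold change at 24 h of auxin against the mean untreated level in normalised reads per kilobase (log axis), for the 13499 entries with 50 or more untreated reads. Points are single entries, red called higher (1226), blue called lower (89) and grey not called (12184), and the dashed line is the median of 0.24. The higher entries reach 4.16 (Gata6) at low levels, while lower entries reach -2.50 and include Phc1 and Trh at high levels.

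The lower genes were of mixed function. By roles assigned after their values were seen, the 85 symbols comprised 15 noncoding RNA entries, 12 transcriptional regulators, 8 metabolic enzymes, 7 membrane transporters, 6 ion channel subunits, 4 signalling molecules or receptors and 33 others. Roles were not assigned to the remaining genes, so these counts have no share over all symbols beside them and are a description. The 85 include symbols lower only in an entry with fewer reads. Counted once by the entry with the most reads, 80 symbols were lower. The lowest median by role, -1.56, was that of the transporters, and the median nearest 0, -0.86, that of the signalling genes. The median log2 fold changes of the 89 lower entries were -0.27, -0.33, -0.32 and -1.09 for auxin of 2, 4, 8 and 24 h. The 1226 higher entries had medians of 0.52, 1.16, 1.37 and 1.07 at the same times. All entries with 50 or more untreated reads had medians of 0.15, 0.40, 0.50 and 0.24, and the courses are to be read against these. The higher and lower sets were chosen on the 24 h values, so their 24 h medians are a description.

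Among transcriptional regulators, Sox5, a SoxD factor of cartilage and neural development, had 175 untreated reads and log2 fold changes of -0.14, -0.37, -0.31 and -2.10 at 2, 4, 8 and 24 h in the authors' deposited tables (adjusted p = 2.36e-06 at 24 h). Zeb1, a zinc-finger homeobox repressor of epithelial genes, had 6029 untreated reads and values of 0.36, 0.45, -0.30 and -1.33 in the authors' deposited tables (adjusted p = 9.54e-05 at 24 h). Neither was called at an earlier time. Zbtb20, a BTB zinc-finger repressor, had 9230 untreated reads in its longest counted entry and a log2 fold change of -0.85 (adjusted p = 0.0192), and its shorter entry had -1.31 (adjusted p = 0.000353) in the authors' deposited table. Phc1, a polyhomeotic subunit of canonical PRC1, was the lower gene with the most untreated reads (13766), at 0.06, -0.02, -0.25 and -0.78 in the authors' deposited tables (adjusted p = 0.00905 at 24 h). Hnf4a, a nuclear receptor of liver and visceral endoderm, was lower at -1.21 from 58.1 untreated reads in the authors' deposited table (adjusted p = 0.0149). The other lower regulators were Nupr1, Mef2b, Aire, St18, Creb5, Ddit3 and, only in its entry with fewer reads, Rfx4.

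Genes of amino acid supply made up the list with the most lower members. Of 42 measured members of an amino acid response list, which collects targets of the stress factor ATF4 and related genes, 0 were higher, 8 lower and 34 not called, against 0.602% lower among all tested symbols. The list median was -0.19 beside 0.19 for all symbols. The lists were chosen with earlier results of these data known, so these comparisons are a description. The lower members included transporters. Slc7a11, the cystine and glutamate exchanger, had 65.9 untreated reads and values of -0.60, -0.80, -1.47 and -2.33 at 2, 4, 8 and 24 h in the authors' deposited tables (adjusted p = 0.000119 at 24 h). Slc6a9, a glycine transporter, had 312 untreated reads and values of -0.96, -0.96, -0.70 and -1.87 in the authors' deposited tables (adjusted p = 3.87e-08 at 24 h). Slc1a4, a transporter of alanine, serine and cysteine, had 1491 untreated reads and values of -1.20, -0.93, -0.49 and -1.03 in the authors' deposited tables (adjusted p = 0.000661 at 24 h).

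Enzymes and regulators made up the rest of the lower members of that list. Chac1, which degrades glutathione, had 330.4 untreated reads and values of -2.59, -1.90, -1.40 and -2.41 in the authors' deposited tables (adjusted p = 1.34e-08 at 24 h), and was called lower at each time. Aldh1l2, a mitochondrial folate enzyme, was at -1.18 and Aldh18a1, which makes the precursor of proline, at -0.67 after 24 h in the authors' deposited table. Nupr1, a stress-induced chromatin protein, was at -1.60 and Ddit3, the stress factor CHOP, at -0.87 in the authors' deposited table. Cars, a cysteine tRNA synthetase that is not on the list, was lower at -0.64 from 5999 untreated reads in the authors' deposited table (adjusted p = 0.0288). The regulator Atf4 and some other members of the response did not pass at 24 h. Atf4 was at -0.23 (adjusted p = 0.53) and Asns, asparagine synthetase, at -0.22 (adjusted p = 0.553) in the authors' deposited table. Trib3, a pseudokinase, was called lower at 2 and 4 h and not at 8 or 24 h. Its values were -1.14, -0.99, -0.44 and -0.62 at 2, 4, 8 and 24 h in the authors' deposited tables (adjusted p = 0.11 at 24 h). Other members ranged up to 0.52 (Atf3, not called) in the authors' deposited table.

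The other stress lists held at most 1 lower member each. Of 22 endoplasmic reticulum chaperone response genes, 4 were higher, 1 lower and 17 not called, with a median of 0.48. Hspa5, the chaperone BiP, had 10920 untreated reads and a log2 fold change of 0.83 (adjusted p = 0.015), and Hyou1 0.75, Xbp1 0.71 and Calr 0.68 in the authors' deposited table. With centring Hspa5 passed 1.5-fold and the other three did not, and at an adjusted p under 0.01 none was called. Herpud1, which acts in degradation of proteins from the endoplasmic reticulum, was lower at -0.71 (adjusted p = 0.0415) in the authors' deposited table. Of 13 heat shock genes 0 were called by the authors' DESeq2 values, with a median of 0.39. Of 20 NRF2 antioxidant genes 3 were higher and 1 lower, with a median of 0.31. The higher ones were Nqo1 (1.04), Pgd (0.70) and Txnrd1 (0.65) in the authors' deposited table, of which Nqo1 alone passed with centring, and the lower one was Slc7a11, which also stands on the amino acid list. Of 12 aryl hydrocarbon receptor genes 3 were higher (1 of the 8 with 50 or more reads), namely Cyp1b1 (2.41 from 14.8 untreated reads), Cyp1a1 (1.90 from 19.4) and Nqo1 in the authors' deposited table. Of 24 p53 targets 2 were higher, Perp (1.31) and Pmaip1 (1.07), and Cdkn1a was at 0.15 (adjusted p = 0.697) in the authors' deposited table.

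**Figure D2:**
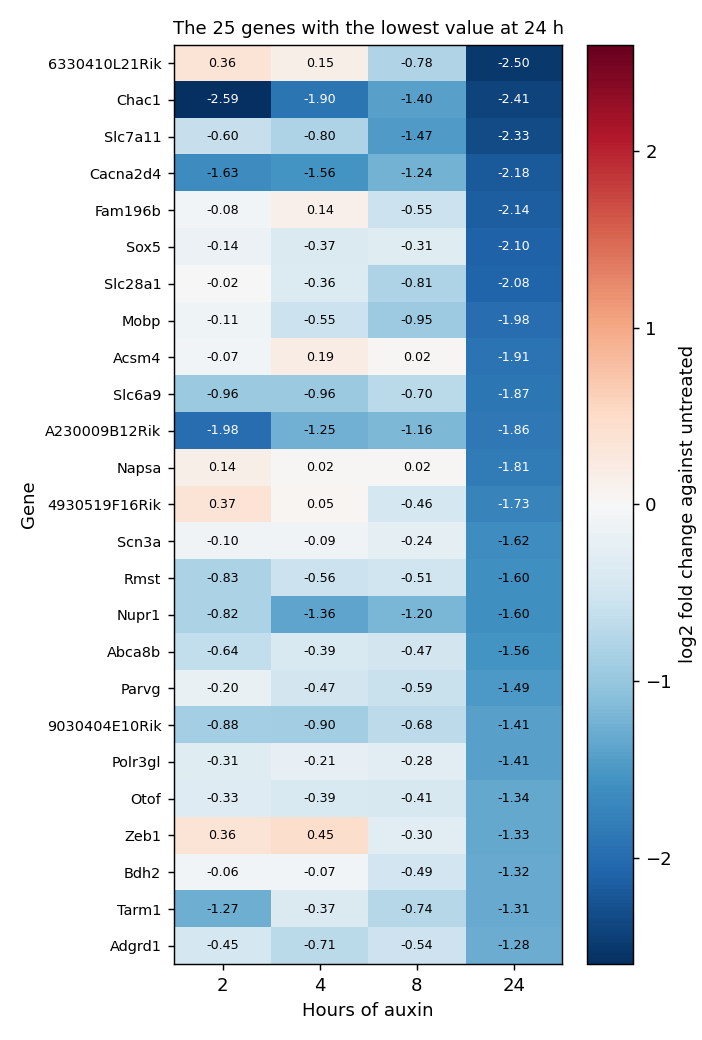
Log2 fold change against untreated cells at 2, 4, 8 and 24 h of auxin (columns) for the 25 symbols lowest at 24 h among lower calls with 50 or more untreated reads (rows), with the value printed in each cell and coloured from blue (lower) to red (higher). Chac1 and Cacna2d4 are at -1.24 or lower at each time, while Sox5, Acsm4, Napsa, Scn3a and Zeb1 lie between -0.37 and 0.45 up to 8 h and at -1.33 or lower at 24 h.

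Some ion channel and transport genes were lower, while more of the listed channel and synaptic genes were higher. Cacna2d4, an auxiliary subunit of voltage-gated calcium channels, had 96.8 untreated reads and values of -1.63, -1.56, -1.24 and -2.18 at 2, 4, 8 and 24 h in the authors' deposited tables (adjusted p = 1.18e-05 at 24 h). Scn3a, a voltage-gated sodium channel, had 320 untreated reads and values of -0.10, -0.09, -0.24 and -1.62 in the authors' deposited tables (adjusted p = 4.38e-06 at 24 h). The former was called lower at each time and the latter only at 24 h, a difference that was not itself tested. Kcnt2, a sodium-activated potassium channel, was lower at -1.05 from 3365 untreated reads in the authors' deposited table (adjusted p = 0.00474). Slc28a1, a nucleoside transporter, reached -2.08 and Abca8b, an ABC transporter, -1.56 after 24 h in the authors' deposited table. The other lower channel genes were Trpm1, Scn9a and, in 1 entry only, Trpm3. On a list of 41 ion channel and synaptic genes, 18 were higher and 2 lower (Cacna2d4 and Scn3a), which leaves 21 not called. Of the 33 with 50 or more reads 12 were higher and 2 lower. Cacna1c, an L-type calcium channel, was at 2.83, Kcnd3, a potassium channel, at 2.43 and Grin2a, an NMDA receptor subunit, at 1.97 in the authors' deposited table.

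Noncoding entries held 15 of the 89 lower calls. Of 471 entries with an NR accession and 50 or more untreated reads, 15 were lower (3.18%) and 25 higher (5.31%), with a median log2 fold change of 0.09. Of 13028 entries with an NM accession, 74 were lower (0.568%) and 1201 higher (9.22%), with a median of 0.25. The NR entries had a median of 259 untreated reads and the NM entries 911, and the part of that difference in reads in these shares was not tested. 6330410L21Rik had 304 untreated reads and values of 0.36, 0.15, -0.78 and -2.50 at 2, 4, 8 and 24 h in the authors' deposited tables (adjusted p = 8.11e-09 at 24 h), below every other call with 50 or more reads. Rmst, a long noncoding RNA of neural development, was at -1.60 (adjusted p = 0.000489) and Trp53cor1, known as lincRNA-p21, at -1.28 (adjusted p = 0.00045) in the authors' deposited table. Whether counting used strand is not stated in the sources used here, so reads of overlapping and antisense genes may not be separable.

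Other lower genes were named for their read number or their low value. Trh, the precursor of thyrotropin-releasing hormone, had the highest level of the lower genes, 1602 reads per kilobase, and values of 0.57, 0.50, 0.22 and -0.80 at 2, 4, 8 and 24 h in the authors' deposited tables (adjusted p = 0.027 at 24 h). Mtss1, a membrane and actin binding protein, had 13455 untreated reads and was at 0.08, -0.04, -0.19 and -0.86 in the authors' deposited tables (adjusted p = 0.00606 at 24 h). A2m, a secreted protease inhibitor, was at -1.03, and Dclk2, a doublecortin-like kinase, at -0.79 in the authors' deposited table. Rnf165 (-0.73), Clybl (-0.73), Pdzd2 (-0.76) and Fhit (-0.78) were others with over 1000 untreated reads in the authors' deposited table. Read number follows length: Pdzd2 had 6.38 and Clybl 21.4 reads per kilobase, below the median of 40.8 of entries not called. Fam196b (-2.14 from 879 reads), the myelin protein gene Mobp (-1.98), the acyl-CoA synthetase gene Acsm4 (-1.91) and the aspartic protease gene Napsa (-1.81) had some of the lowest values in the authors' deposited table.

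An entry each of Rfx4 and Fgf17 was called higher at early times and lower at 24 h. They were singled out after their values were seen. Rfx4, a factor of neural tube and cilia development, had an entry with 197 untreated reads at 0.84, 1.39, 0.12 and -1.02 at 2, 4, 8 and 24 h in the authors' deposited tables. This entry was called higher at 2 and 4 h and lower at 24 h (adjusted p = 0.0142). The other Rfx4 entry had more untreated reads (275) and was not called lower. It was at 1.53, 1.69, 0.46 and -0.73 at the same times in the authors' deposited tables (adjusted p = 0.0771 at 24 h). Fgf17, a fibroblast growth factor, had 171 untreated reads and values of 0.68, 0.83, 0.46 and -0.70 in the authors' deposited tables, called likewise (adjusted p = 0.0379 at 24 h). Calls at 2 and 4 h were made without centring, and the medians of entries with 50 or more reads were then 0.15 and 0.40. Entries of 1 gene share reads and could differ. Of the 3 Trpm3 entries with 50 or more reads, 1 was lower at -0.90, and the others were at -0.31 and 0.01, not called, in the authors' deposited table. Creb5 was lower at -1.05 in its coding entry and at 0.29, not called, in its noncoding one in the authors' deposited table.

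The 15 highest genes included transcription factors, growth regulators and signalling genes. Gata6, a factor that specifies primitive endoderm, had 81.1 untreated reads and values of 2.03, 2.93, 3.41 and 4.16 at 2, 4, 8 and 24 h in the authors' deposited tables (adjusted p = 7.72e-38 at 24 h). Lmx1b (3.91), a LIM homeobox factor of limb and midbrain, Pax3 (3.90), a neural crest and muscle regulator, and Nfia (3.43), a factor of glial development, belonged to the highest 15 by the authors' deposited table. Between them ranked Igf2 (3.76) and Grb10 (3.70), both imprinted and described below, and Trank1 (3.70) in the authors' deposited table. Others were Grid1 (3.42), a glutamate receptor family member, Hs6st2 (3.41), a heparan sulfate sulfotransferase, Nrg3 (3.36), a neuregulin, Pcdh19 (3.01), a protocadherin, and Nfatc1 (2.99), a calcium-regulated factor, in the authors' deposited table. Rbm46, an RNA-binding protein of germ cells, was at 3.38, Cadps2, which acts in vesicle release, at 3.35 and Rnf217 at 3.22 in the authors' deposited table.

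Most members of the body-patterning lists rested on few reads. Of 39 Hox cluster genes 34 were higher, 0 lower and 5 not called, with a median of 3.21, but only 3 members had 50 or more untreated reads, of which 1 was higher, with a median of 0.42. Of 73 Pax, LIM and other homeobox factors 64 were higher and 0 lower, with a median of 3.06. Among the 17 of them with 50 or more reads, 12 were higher, with a median of 2.26. Altogether 1436 entries were listed at 0 in untreated cells and 23 of these were called higher, among them Foxc1, Foxf1, Cdx2, Foxf2, Nr2e1 and Hand2, for which no fold is given. The centred median of the Hox list was 2.97 and that of the other homeobox list 2.82.

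Lineage lists other than those of the stem cell state held many higher genes. Mesoderm and primitive streak genes were higher in 18 of 26 cases and lower in 0 (median 2.04), although 3 had 50 or more untreated reads, of which 2 were higher. Eomes, a T-box factor of streak and trophoblast, was at 2.73 from 80.2 reads, and T, the brachyury gene, at 2.78 from 14.1 reads in the authors' deposited table. Among 15 trophoblast genes there were 8 higher and 0 lower calls (median 1.34), or 3 higher of the 6 with 50 or more reads, with Tfap2a at 2.17 and Gata3 at 2.76 in the authors' deposited table. Of 30 neural genes 15 were higher and 0 lower (median 0.79), or 7 of the 15 with 50 or more reads (median 0.52), with Pax6 at 2.35 and Nes, which encodes the progenitor filament nestin, at 1.57 in the authors' deposited table. Markers of these cell types summed to at most 23.3 reads per kilobase before treatment, as given above.

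Some primitive endoderm genes were higher and others were not called. Of 25 measured members 11 were higher, 1 lower (Hnf4a) and 13 not called, with a median of 0.43. Of the 17 with 50 or more reads 7 were higher and 1 lower, with the same median of 0.43. Its transcription factors and collagen chains were among the higher ones: Gata4 was at 1.45 (adjusted p = 6.09e-06), Sox17 at 2.55 from 7.53 reads, Col4a2 at 1.72 and Col4a1 at 1.84 from 1232 reads in the authors' deposited table. Pdgfra, the receptor that marks the lineage, was at 0.66, 1.81, 1.93 and 2.07 at 2, 4, 8 and 24 h in the authors' deposited tables (adjusted p = 8.9e-11 at 24 h). The laminin chains Lama1 (-0.00) and Lamc1 (-0.19) and the endocytic adaptor Dab2 (0.36) were not called in the authors' deposited table.

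Pluripotency genes were mostly not called. Of 29 naive pluripotency genes 1 was higher and 0 lower, and 28 were not called, with a median of 0.08, which becomes -0.16 when centred. Pou5f1 was at 0.23, Nanog at 0.24, Klf4 at 0.28, Esrrb at 0.07 and Sox2 at -0.19 in the authors' deposited table, with adjusted p from 0.444 to 0.851. The signs of Pou5f1, Nanog and Esrrb turned negative with centring. Gbx2, a homeobox gene, was the member called higher, at 1.46, 2.11, 1.60 and 0.96 at 2, 4, 8 and 24 h in the authors' deposited tables. Of 14 LIF and STAT3 targets 0 were called by the authors' DESeq2 values (median 0.07, centred -0.18). Of 19 genes of the formative and primed epiblast 4 were higher and 0 lower, with a median of 0.22, namely Cdh2 (2.48), Fgf5 (1.80 from 38.2 reads), Pou3f1 (1.11) and Dnmt3b (0.71) in the authors' deposited table.

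**Figure D3:**
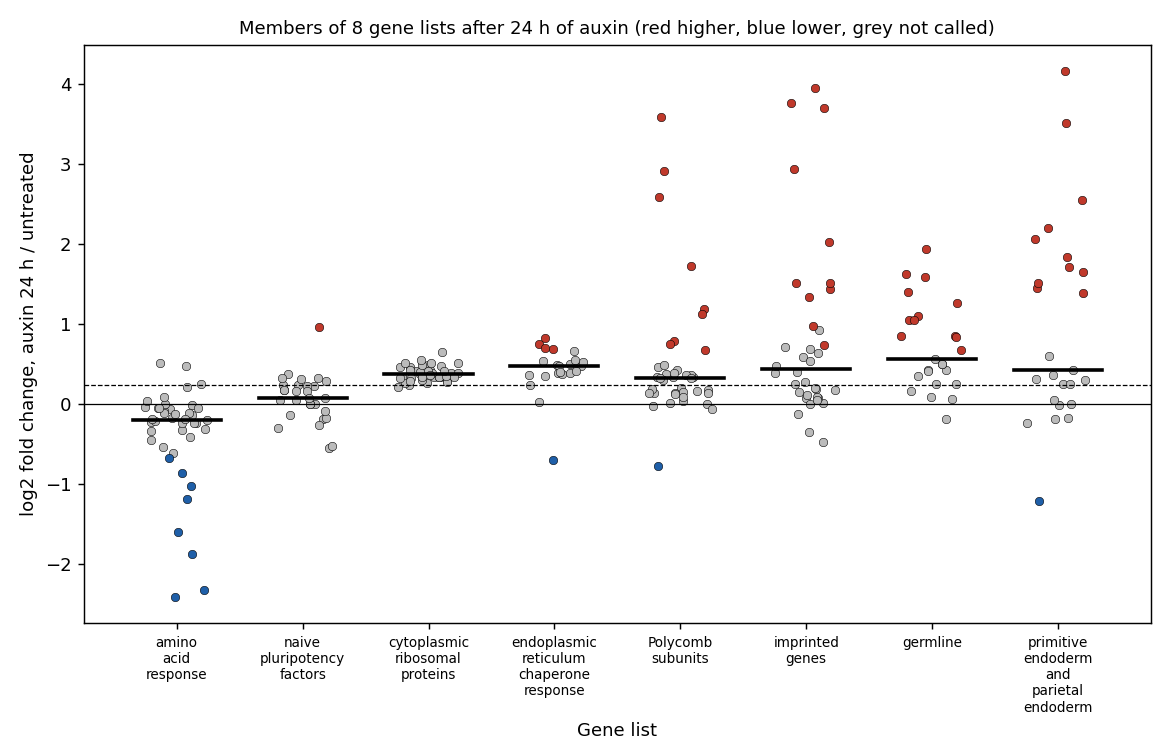
Log2 fold change at 24 h of auxin for the measured members of 8 gene lists, 1 point per gene, red called higher, blue called lower and grey not called. Thick bars are list medians, the solid line is 0 and the dashed line the median of 0.24 of entries with 50 or more reads. The amino acid response list has its median below 0 and 8 lower members, the ribosomal protein list lies between 0.21 and 0.65 with no call, and the Polycomb, imprinted, germline and endoderm lists have tails of higher genes.

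Imprinted and germline genes, which are also under DNA methylation, were higher in part. Of 36 imprinted genes 11 were higher, 0 lower and 25 not called (median 0.44). Of the 29 with 50 or more reads 7 were higher, with a median of 0.26 beside 0.24 for all such entries. Igf2, a fetal growth factor, had 73.4 untreated reads and values of 0.73, 2.00, 2.68 and 3.76 at 2, 4, 8 and 24 h in the authors' deposited tables (adjusted p = 1.78e-25 at 24 h). Its neighbour H19 was at 0.92 (adjusted p = 0.0577) in the authors' deposited table. Grb10, a growth-limiting adaptor, was at 3.70 from 757 reads, Sfmbt2, itself a Polycomb-family gene, at 2.03 from 4406 reads, and Cdkn1c, a cell cycle inhibitor, at 1.51 from 317 reads in the authors' deposited table. Of 25 germline genes, all with 50 or more reads, 12 were higher and 0 lower (median 0.57). Tdrd1 (1.94), a tudor protein of the piRNA pathway, Ddx4 (1.62 from 2242 reads), the germ cell RNA helicase, Slc25a31 (1.59), Tex101 (1.40) and Taf7l (1.27) led them in the authors' deposited table.

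Polycomb genes themselves changed in both directions. Of 39 measured subunit genes 9 were higher, 1 lower (Phc1) and 29 not called, with a median of 0.33. Among canonical PRC1 subunits, Cbx8 was at 2.91 from 15.1 reads, Bmi1 at 2.59 from 201 reads and Cbx2 at 0.75 in the authors' deposited table, the last no longer past 1.5-fold with centring. Of the variant complexes, the PCGF1 partner Bcor was at 1.73 and E2f6 at 1.19 in the authors' deposited table. For PRC2, the accessory gene Phf19 was at 1.12 and was called, while Ezh2 (0.33) and Suz12 (0.14, negative with centring) were not called in the authors' deposited table.

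Signalling and adhesion lists held higher members and at most 1 lower member each, and part of the higher calls rested on members with under 50 untreated reads. Of 30 Wnt ligands and targets 20 were higher and 0 lower (median 1.31), and of the 12 with 50 or more reads 6 were higher (median 0.64), with Wnt5a at 3.04 from 38.4 reads and Wnt5b at 1.71 from 141 reads in the authors' deposited table. Of 25 BMP and TGF-beta genes 14 were higher and 0 lower (median 0.99), and of the 17 with 50 or more reads 8 were higher (median 0.59). Lefty2, a Nodal inhibitor, was at 0.01, 0.41, 1.24 and 1.35 at 2, 4, 8 and 24 h in the authors' deposited tables (adjusted p = 1.07e-05 at 24 h), and Smad6, an inhibitory SMAD, was at 1.62. Of 23 Fgf ligands and receptors 9 were higher and 1 lower (Fgf17), or 3 and 1 of the 14 with 50 or more reads, with the receptor Fgfr2 at 1.82 from 475 reads in the authors' deposited table. Of 19 retinoic acid genes 8 were higher and 0 lower, or 5 of the 12 with 50 or more reads: the synthesis enzyme Aldh1a2 was at 1.95, the carrier Rbp4 at 1.81 and the binding protein Crabp1 at 1.09 in the authors' deposited table. Among 40 cadherin and axon guidance genes 28 were higher and 0 lower (median 1.33), or 21 of the 31 with 50 or more reads (median 1.20), with the ephrin receptor gene Epha7 at 2.22 from 273 reads in the authors' deposited table. Of 26 Notch and Hedgehog genes 7 were higher and 0 lower, but 2 of the 17 with 50 or more reads. Of 30 immediate early genes 7 were higher and 0 lower, but 2 of the 23 with 50 or more reads, which is near the 9.08% of all such entries. Of 16 FGF and ERK feedback genes, all with 50 or more reads, 4 were higher (2 with centring) and 0 lower.

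Epithelial and mesenchymal markers were mixed. Of 18 measured, 11 were higher and 1 lower, with a median of 1.15. Of the 11 with 50 or more reads, 5 were higher and 1 lower, with a median of 0.60. Cdh2, N-cadherin, was at 2.48 from 347 reads, and Twist2, a mesenchymal factor, at 3.44 from 21.9 reads in the authors' deposited table. Zeb1 was lower as described above, while its paralogue Zeb2 was higher at 0.97 in the authors' deposited table. Cdh1, E-cadherin, was at 0.43 and Epcam at 0.48, both not called, and Vim, vimentin, was at -0.42, not called, in the authors' deposited table. Of 30 collagen and matrix genes 7 were higher and 0 lower, or 5 of the 22 with 50 or more reads, with Fbn1, a microfibril protein, at 1.52 in the authors' deposited table.

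**Figure D4:**
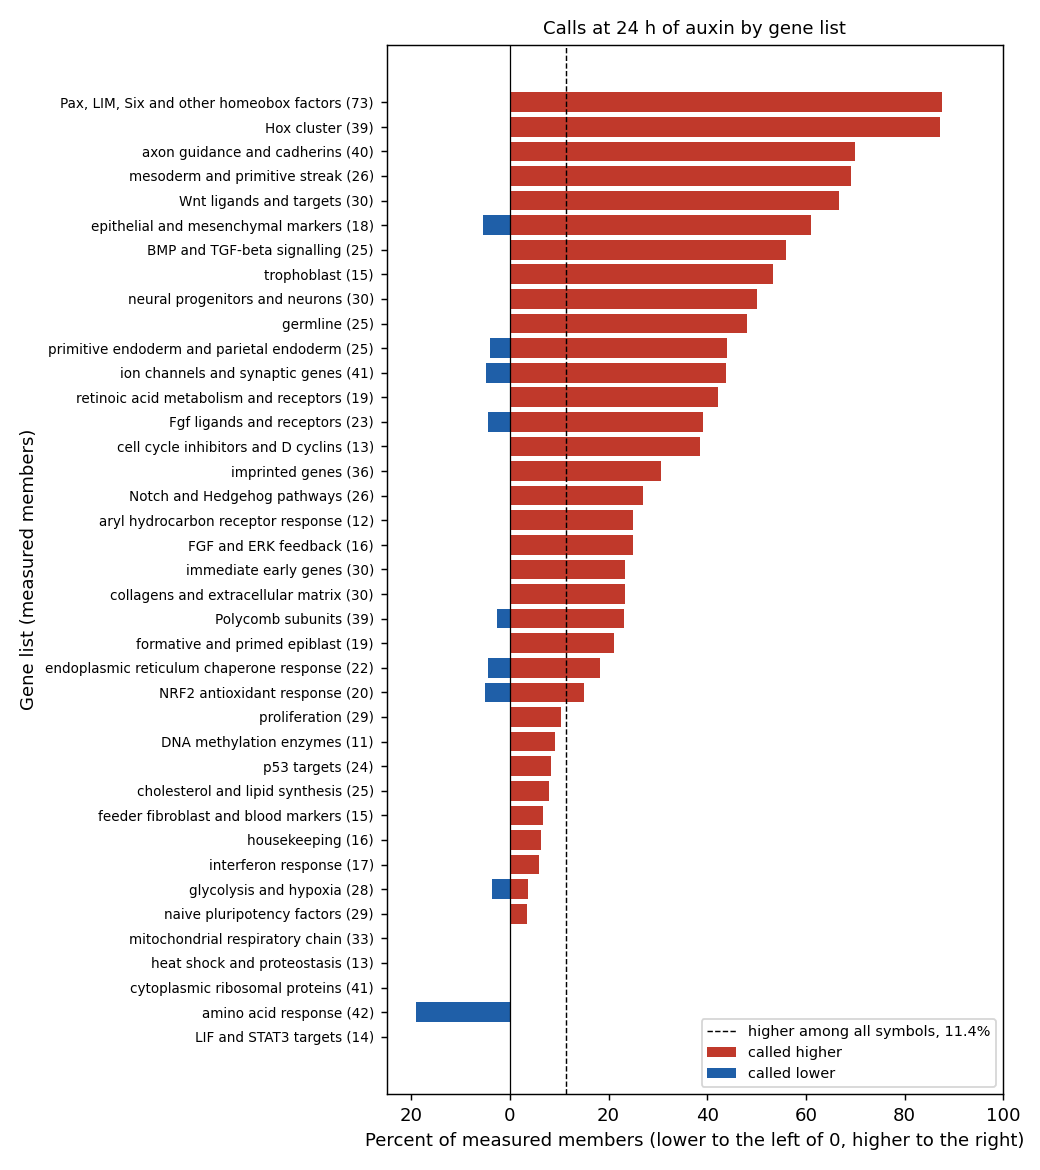
Percent of the measured members of each of 39 gene lists called higher (red, to the right) or lower (blue, to the left) at 24 h of auxin, with the number of measured members in brackets and the share of higher calls among all tested symbols as a dashed line (11.4%). Hox and other homeobox lists reach the highest shares, and the amino acid response list is the one with 0 higher and 8 lower members.

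Genes of basic cell functions were largely not called. Of 41 cytoplasmic ribosomal protein genes 0 were called, with a median of 0.38 (centred 0.13), and of 33 respiratory chain genes 0, with a median of 0.29 (centred 0.05), by the authors' DESeq2 values. Of 16 housekeeping genes 1 was higher, Polr2a, the largest subunit of RNA polymerase II, at 0.80 from 16732 untreated reads in the authors' deposited table (adjusted p = 0.0162), and it did not pass 1.5-fold with centring. Of 29 proliferation genes 3 were higher, Ccne1 (0.80), Rrm2 (0.77) and Cdc6 (0.67) in the authors' deposited table, and 0 with centring. Of 25 cholesterol and lipid genes 2 were higher, and of 28 glycolysis and hypoxia genes 1 was higher and 1 lower (Ndufa4l2, -1.19) in the authors' deposited table. Cell cycle inhibitors and D cyclins had 5 of 13 members higher, among them Ccnd2 at 1.74 and Cdkn2a at 0.90 in the authors' deposited table. Of 11 DNA methylation enzymes 1 was higher (Dnmt3b, not with centring), of 17 interferon genes 1 (B2m at 0.66, not with centring) and of 15 fibroblast and blood genes 1 (Col1a2 at 1.09 from 44.9 reads) in the authors' deposited table. The 1 measured gene of the two-cell list was not called.

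The 10 higher genes with the most untreated reads had log2 fold changes from 0.65 to 1.04 in the authors' deposited table. Eif2s2, a subunit of translation initiation factor eIF2, had 15846 untreated reads and a log2 fold change of 1.04 (adjusted p = 0.00296) in the authors' deposited table, and it passed with centring. Cand1 (0.72), Bzw1 (0.76), Arih2 (0.77) and Kif20a (0.67) did not pass with centring in the authors' deposited table. Some genes were called higher at 24 h and at no earlier time. Gprin3, a neurite outgrowth protein, was at 0.17, 0.77, 0.80 and 1.45 at 2, 4, 8 and 24 h in the authors' deposited tables. Inpp4b (1.16), Lgals4 (1.14), Rac3 (1.09) and Dmrtb1 (1.08) were others in the authors' deposited table. Their values at earlier times were above 0, as were the medians of all entries with 50 or more reads (0.15, 0.40 and 0.50). No difference between times was tested.

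Higher and lower entries shared a low untreated level. The median untreated level was 5.63 reads per kilobase for higher, 7.10 for lower and 40.8 for entries not called. Their median lengths were 45948, 47661 and 25729 bases, and their median untreated reads 249, 291 and 1022. Since the untreated mean enters both the level and the fold change, entries of similar read number were compared. Among entries with 200 to under 1000 reads, 45.8% were called higher at under 2 reads per kilobase and 4.25% at 20 to under 50. At this read number a low level per kilobase goes with great length by construction. By length, 4.74% were higher at 10000 to under 20000 bases and 50.8% at 500000 or more. For lower calls the counts were small: 9 of 259 entries at 100000 to under 200000 bases and 0 of 63 at 500000 or more. These shares are a description, since entries of 1 gene share reads.

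**Figure D5:**
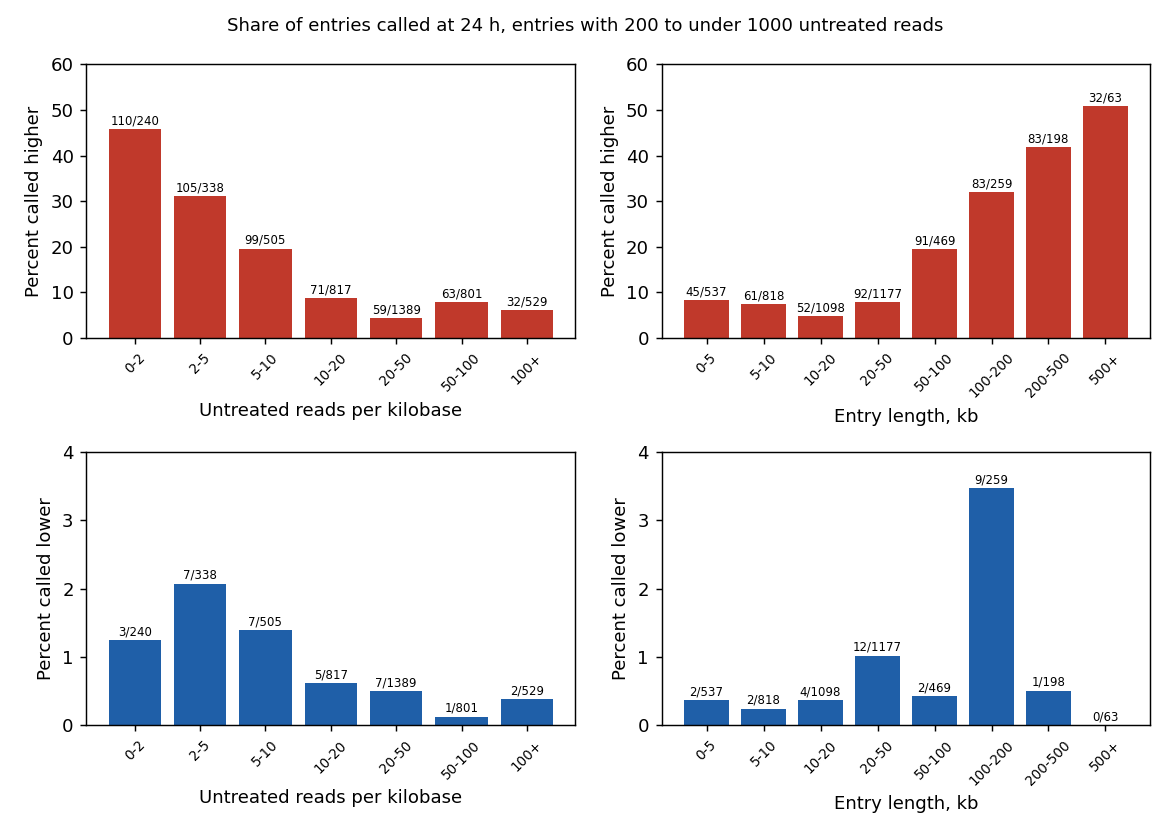
Percent of entries called higher (red, upper panels) and lower (blue, lower panels) at 24 h of auxin among entries with 200 to under 1000 untreated reads, by untreated reads per kilobase (left) and by entry length in kilobases (right), with called over total entries printed above each bar. The higher share falls from 45.8% to 4.25% between the lowest level and 20 to 50 reads per kilobase and reaches 50.8% in the longest entries, while no bin has over 3.47% lower.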

How the data were processed

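The authors' tables for 2, 4, 8 and 24 h of auxin against untreated cells were used, and the PRC2deg table was not used here. Per the submitters' processing notes, Bowtie2, STAR, SAMtools, bedtools and DESeq2 were used with the mm10 and dm6 builds. Versions are not stated in the sources used here. In each table the authors deposited log2 fold changes, adjusted p-values, an entry length in bases and a mean untreated level. That level is headed as a mean RPKM and was treated as a deposited signal, in normalised reads per kilobase, because multiplied by length its low values gather at fixed steps. The log2 fold changes deposited by the authors appear shrunken towards 0 for some entries with few reads. Others with few reads kept large values, such as Hoxa11 (7.09 from 2.35 untreated reads) and 1700027A15Rik (-6.08 from 13.6) in the authors' deposited table.

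The authors' DESeq2 tests were taken as they stand, with 3 libraries per group. A call needed an adjusted p-value under 0.05 in the authors' table and over 1.5-fold. No fold change was given for 676 entries, and 2318 entries had a fold change but no adjusted p-value, with at most 7.28 untreated reads. With no value per library, replicates could not be compared. Transcripts of 1 gene were kept as separate entries, and lists used the entry with the most untreated reads for each symbol.

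The members, the 40 gene lists and the tests were chosen with earlier results of these data known. Named genes were, among calls with 50 or more untreated reads, the 15 highest, the 25 lowest, the 10 higher and 15 lower with the most reads, the 10 highest and 10 lowest not called in that direction earlier, up to 6 per list by smallest adjusted p, and a fixed set. Some genes that this rule names are not reported here. Other genes named in the text were chosen after their values were seen. An upper limit of p worked back from the adjusted values, used to readjust over entries with 50 or more reads, was tested on simulated data. Alternatives were other limits on p, fold and reads, centring, and symbols counted once. Python 3.11.15, numpy 2.4.6, pandas 2.3.3 and matplotlib 3.10.9 were used. No mouse sequence or coordinate was used here.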

Additional observations from a re-analysis of the deposited data

How the results depend on the processing

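No paired analysis was possible because the deposited tables hold no value per library, and for the same reason leaving out replicates in turn was not run. The planned check of promoter CpG content was not run, since no mouse promoter sequence was used here. Of all entries, 2020 were higher and 108 lower. With 100 or more untreated reads these became 965 and 71, and higher calls readjusted over entries with 50 or more reads were 1122. Lower calls were 55 at an adjusted p under 0.01 and 180 at one under 0.1. Among entries with 50 or more reads, 1226 were higher and 89 lower. At an adjusted p under 0.01 these were 781 and 49, at over 2-fold 682 and 58, and at an adjusted p under 0.1 the lower calls were 136. With no filter on reads, 2020 were higher. Centring on the median of 0.24 left these 4 counts within 1.5 times, moved 8 list counts by more and turned the sign of 5 named genes that were not called, Cdkn1a (-0.10), Esrrb (-0.17), Nanog (-0.00098), Pou5f1 (-0.0099) and Suz12 (-0.10). Of the named genes, 21 no longer passed 1.5-fold with centring, 37 no longer passed an adjusted p under 0.01 and 40 no longer passed 2-fold. The cause of these moves was not tested. The median untreated reads were 249 for higher and 291 for lower entries and 1022 for those not called, and the depth behind each library is unknown.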
